A study of Mus musculus with 48 samples.

Results

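The response of primary mouse lung fibroblasts of the Ga13*-BERKY3 line to TRAP-6 was read from all 12 RNA-seq libraries of that line, out of 48 in the series. TRAP-6 is a short peptide that mimics the tethered ligand of PAR1, the main thrombin receptor. The 12 libraries were taken by line and treatment label alone: 6 came from stimulated wells and 6 from unstimulated wells. Every well held cells of mice heterozygous for the Ga13*-BERKY3 allele, which encodes a luminescent sensor of active Ga13 that stays silent until Cre recombinase acts. Each well of 160000 cells was transduced in the presence of 6 µg/ml polybrene with a virus diluted 1:1000, so unstimulated controls were transduced as well. Within each arm 3 libraries had received AAV2/1-CMV-empty (sensor off) and 3 had received AAV2/1-CMV-Cre (sensor on). All wells were changed to new medium 90 min before lysis, with 100 µM TRAP-6 in the stimulated wells only, so any effect of the medium change was shared by both arms. The labels give no age, sex or strain, and they number the replicates 1 to 3 without saying whether these were separate mice or wells of 1 culture. The p-values therefore measure the spread between these libraries, which may be technical.

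PAR1 couples to several G protein families. Ga13 and its relative Ga12 activate guanine nucleotide exchange factors of RhoA, which then drives actin assembly, which releases the coactivator MRTF to work with serum response factor (SRF) on CArG boxes and also favours the coactivators YAP and TAZ. Gaq and Ga11 activate phospholipase C beta, calcium release and protein kinase C, and calcium activates calcineurin and the NFAT factors, while Gai lowers cAMP. In lung fibroblasts thrombin is known as a mitogen and as an inducer of contractile and matrix genes during repair.

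Total counts per library ran from 17.4 M to 42.6 M (M stands for 1000000 counts), with medians of 21.7 M in the unstimulated and 23.6 M in the stimulated arm. Levels are counts per 1000000 of the scaled library size (CPM). The sensor transcript held 0.0529 to 0.936 CPM in the 6 empty virus libraries and 105 to 137 CPM in the 6 Cre libraries. The 12 fibroblast markers summed to 62267 to 65839 CPM without TRAP-6 and 63643 to 66938 CPM with it. Lung epithelial markers summed to at most 2.69 CPM, with Sftpa1, Sftpd, Scgb1a1 and Scgb3a2 at 0 in all 12 libraries. T and B lymphocyte markers stayed under 1 CPM. Mesothelial markers (855 to 1043 CPM without and 903 to 1130 CPM with TRAP-6), macrophage markers (227 to 311 and 233 to 324 CPM) and endothelial markers (83.3 to 90.8 and 83.2 to 89.0 CPM) were present in both arms with overlapping sums. In bulk RNA, fewer cells of a type and less RNA per cell cannot be told apart.

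Within 90 min TRAP-6 changed many genes by small amounts and few genes by large ones. Of 15835 genes tested, 686 rose (4.33%) and 538 fell (3.4%) at a Benjamini-Hochberg adjusted p under 0.05 in edgeR's quasi-likelihood test with virus as a covariate, 1224 in all (7.73%). With replicate number as a further term 1554 genes were called, 1219 of the 1224 among them. The median change among the 1224 called genes was 1.21-fold upward and 1.18-fold downward. Only 56 genes rose (0.354%) and 12 fell (0.0758%) by at least 2-fold, and 134 and 53 moved by at least 1.5-fold. All 1224 called genes had the same sign with each virus. They were called on both viruses together, which favours a shared sign, and 271 rises and 105 falls were called with each virus alone. The 6 stimulated libraries lay entirely above the 6 unstimulated ones for 407 of the 686 and entirely below for 273 of the 538. Over all genes tested these separations occurred in 435 (2.75%) and 314 (1.98%).

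**Figure D1:**
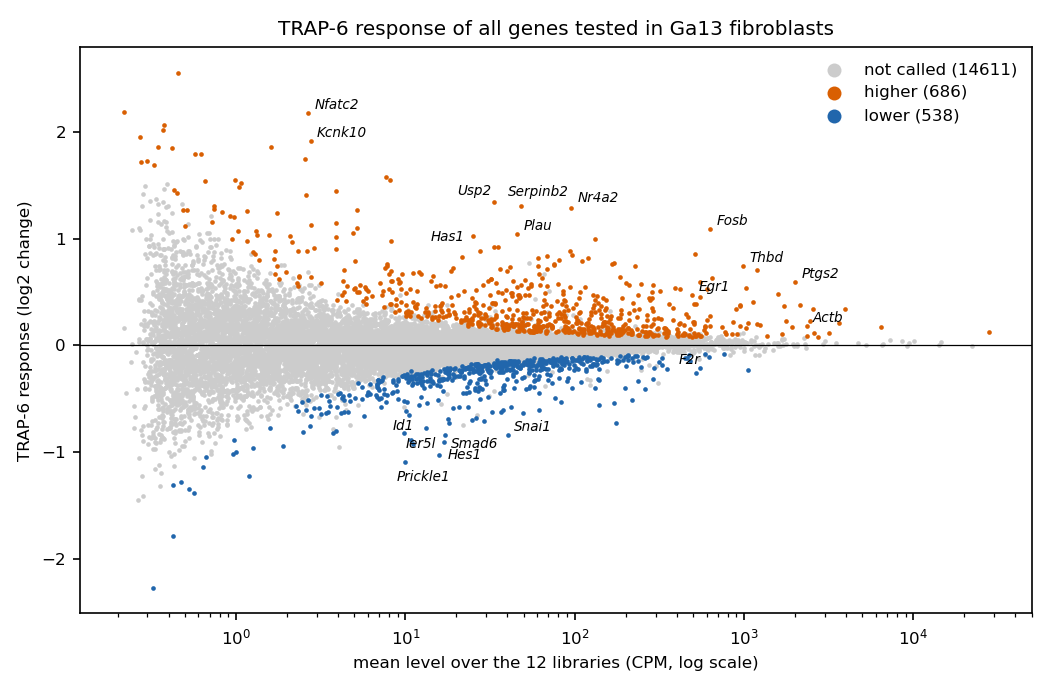
TRAP-6 response (log2 change, stimulated over unstimulated, virus as a covariate) against the mean level over the 12 libraries (CPM, log scale) for the 15835 genes tested, with the 686 called higher and the 538 called lower in colour. Above a mean of 100 CPM the called genes that reach a log2 change of 1 are Fosb (1.09) and Fam107b (1.00), and F2r lies near the zero line.

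Among genes with a mean of at least 1 CPM, the 12 with the largest rises included genes of transcription factors, an ion channel and a protease inhibitor, most of them at low level. Nfatc2 encodes an NFAT factor that calcineurin activates, and it held 0.556 to 1.87 CPM (median 0.851) in the 6 unstimulated libraries and 3.22 to 5.55 CPM (median 4.43) in the 6 stimulated ones. Its log2 change was 2.18 ± 0.22 (SE; edgeR adjusted p = 2.23e-08), and the arms did not overlap. Kcnk10, a leak potassium channel gene, lay at 0.910 to 1.90 CPM (median 1.04) without and 2.96 to 5.09 CPM (median 4.42) with the peptide (1.92 ± 0.19, edgeR adjusted p = 2.62e-09). The late cornified envelope gene Lce1l and the keratinocyte proline-rich protein gene Kprp rose by 1.86 and 1.75 from medians of 0.607 and 1.16 CPM. These are genes better known from epidermis, and they too separated the arms. Nr4a2, an orphan nuclear receptor induced early by many receptors, held 47.4 to 69.5 CPM (median 49.99) unstimulated and 115 to 164 CPM (median 136) stimulated (1.29 ± 0.13, edgeR adjusted p = 1.39e-04). Its replicate 3 was highest in each of the 4 groups, at 68.4 and 69.5 CPM unstimulated and 142 and 164 CPM stimulated, and every stimulated library still lay above every unstimulated one.

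Usp2 encodes a deubiquitinase that acts on clock proteins among others, and Serpinb2 encodes the plasminogen activator inhibitor PAI-2. Usp2 held 17.0 to 22.3 CPM (median 18.0) unstimulated and 42.1 to 54.9 CPM (median 47.2) stimulated (1.35 ± 0.06, edgeR adjusted p = 5.71e-15). Serpinb2 held 19.8 to 35.5 CPM (median 28.8) and 62.0 to 79.4 CPM (median 66.5) (1.31 ± 0.13, edgeR adjusted p = 1.04e-04). In both genes the lowest stimulated library was well above the highest unstimulated one. Further rises among the top 12 were those of Nap1l5 (1.52), Frat2 (1.45), an inhibitor of GSK-3, Ncald (1.41), a neuronal calcium sensor gene, and Rfx2 (1.27). Exons of Serpinb2 overlap Serpinb10, and those of Usp2 and Ncald overlap predicted genes, which leaves these counts uncertain.

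Several of the 12 largest falls, again at a mean of at least 1 CPM, were in developmental regulators. Prickle1, a planar cell polarity gene, held 12.3 to 15.2 CPM (median 13.2) unstimulated and 4.97 to 7.52 CPM (median 6.52) stimulated, a log2 change of -1.10 ± 0.10 (edgeR adjusted p = 1.39e-10). Hes1, the classical Notch target and transcriptional repressor, held 19.9 to 23.2 CPM (median 20.6) unstimulated and 9.73 to 11.4 CPM (median 10.4) stimulated (-1.02 ± 0.07, edgeR adjusted p = 4.36e-13). In both genes every stimulated library lay far below every unstimulated one. The homeobox gene Hoxa3 fell by 0.93, with exons that overlap Hox antisense transcripts. Snai1, the repressor of epithelial genes, fell by 0.84 ± 0.07, with 46.3 to 57.8 CPM (median 52.5) unstimulated and 24.5 to 32.1 CPM (median 29.1) stimulated. Sall2, Klhl25, Ier5l, Pars2 and Zfp763 fell by 0.82, 0.89, 0.90, 0.96 and 1.00, and Tmem255b, which overlaps Gas6, fell by 1.22 from a median of 1.49 to 0.663 CPM. The call of Zfp763 (edgeR adjusted p = 0.0248) was lost when stimulated empty replicate 1, 2 or 3 or unstimulated empty replicate 2 was left out.

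**Figure D2:**
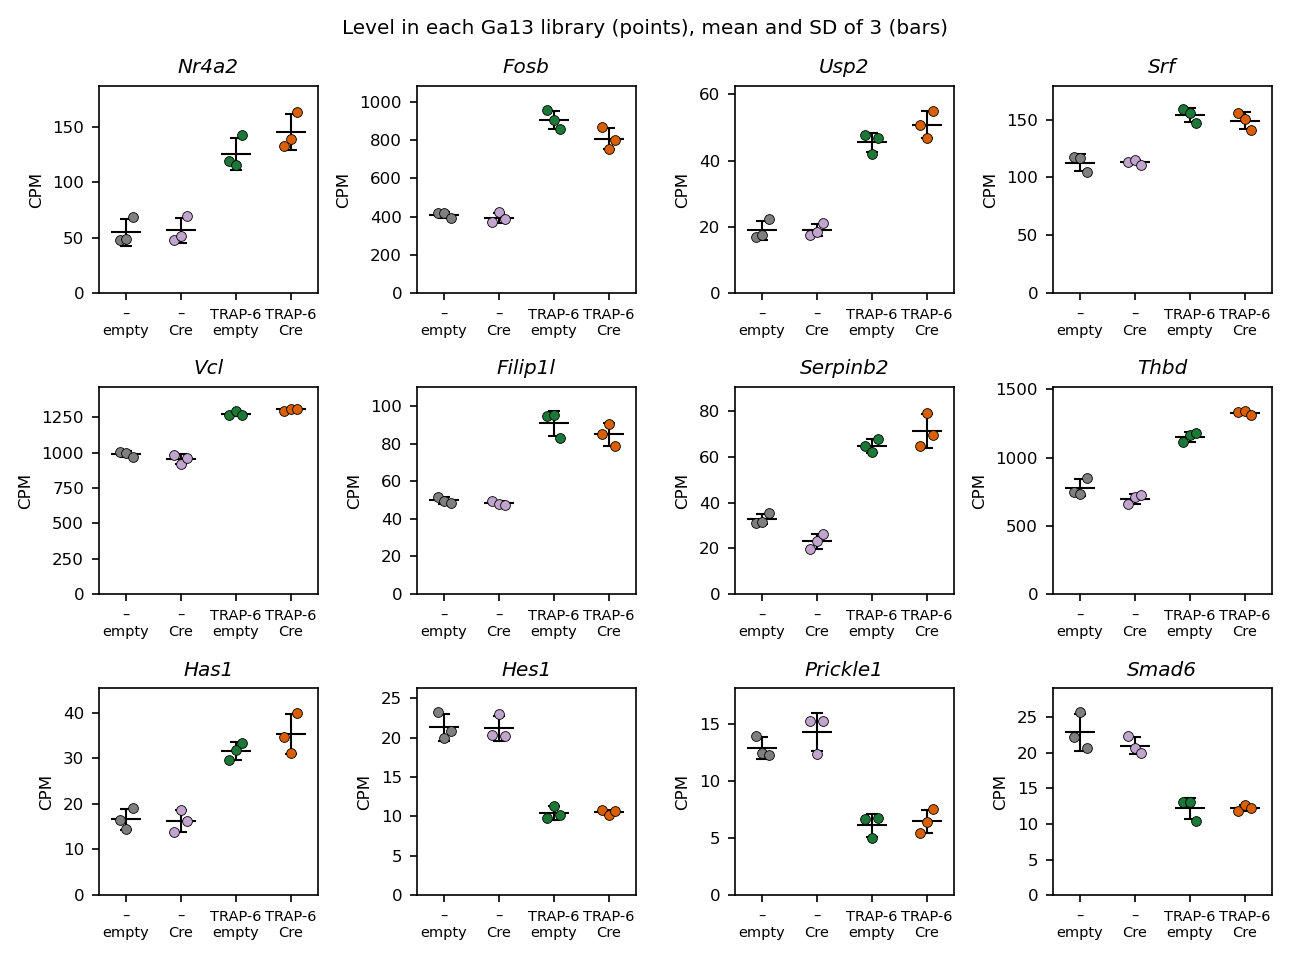
Levels (CPM, axis from 0) of 12 genes in each Ga13 library, grouped by treatment and virus; points are libraries, long bars the mean and whiskers the SD of 3. In every panel the 6 stimulated libraries lie on 1 side of the 6 unstimulated ones: above for Nr4a2, Fosb, Usp2, Srf, Vcl, Filip1l, Serpinb2, Thbd and Has1, and below for Hes1, Prickle1 and Smad6.

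Transcripts of the receptor itself and of the G protein alpha subunits that it couples to were not called. F2r, which encodes PAR1, held 434 to 491 CPM (median 456) unstimulated and 446 to 474 CPM (median 462) stimulated (0.02 ± 0.03, edgeR adjusted p = 0.796), and the arms overlapped. F2rl1, which encodes PAR2, was near 2 CPM in both arms (-0.15 ± 0.18, edgeR adjusted p = 0.746). F2rl2 and F2rl3, for PAR3 and PAR4, were too low to test, with 9 and 26 counts over the 6 unstimulated libraries and 8 and 34 over the stimulated ones. Gna13 held 95.6 to 106 CPM (median 101) and 92.7 to 95.6 CPM (median 94.3) (-0.10 ± 0.03, edgeR adjusted p = 0.0575). It missed the threshold here and passed it in 4 other fits. The log2 changes of Gna12, Gnaq and Gna11 were -0.02 ± 0.04, 0.07 ± 0.04 and -0.08 ± 0.03 (edgeR adjusted p = 0.85, 0.352 and 0.134). Of 29 receptor and G protein signalling genes tested, 2 rose and none fell (6.9% called, near the 7.73% of all genes tested). Rgs2, a GTPase accelerator that shuts off Gaq, rose, holding 2.41 to 4.15 CPM (median 3.27) unstimulated and 4.86 to 8.06 CPM (median 7.10) stimulated (1.06 ± 0.13, edgeR adjusted p = 4.77e-07). Plcb4, a phospholipase C beta gene, rose by 0.17 ± 0.05 (edgeR adjusted p = 0.0385), a call lost on leaving out any of 8 single libraries.

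Among 36 genes of RhoA-family GTPases, their exchange factors and effectors, 6 rose (16.7%, against 4.33% of all genes) and 5 fell (against 3.4%), with a median log2 change of 0.03 against -0.0018 over all genes tested. The exchange factors that Ga13 binds, Arhgef1, Arhgef11 and Arhgef12, had log2 changes of 0.0023, -0.03 and 0.03 and were not called, nor was Rhoa (0.04). Cdc42ep3, a septin and actin organiser, held 46.4 to 59.7 CPM (median 51.9) and 79.4 to 90.4 CPM (median 87.0) (0.72 ± 0.05, edgeR adjusted p = 1.56e-12). Ppp1r12a, the targeting subunit of myosin phosphatase, rose by 0.33 ± 0.03, the exchange factor gene Akap13 by 0.24 ± 0.03 and the RhoA effector kinase gene Rock2 by 0.15 ± 0.03. The 5 that fell were Rnd1, Limk2, Rhob, Rhoq and Arhgef2, by 0.11 to 0.31.

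SRF and MRTF targets, mostly genes of actin, focal adhesions and contraction, rose together by small amounts. Of 47 tested, 33 rose (70.2%, against 4.33% of all genes) and 2 fell, and the median log2 change was 0.12. The arms were fully separated upward for 23 of the 47, against 2.75% of all genes. Of the called members 7 passed a test against a log2 change of 0.2, as did 298 of all 1224 called genes. Filip1l, a filamin interacting protein gene, held 47.7 to 51.8 CPM (median 49.0) without TRAP-6 and 78.8 to 95.1 CPM (median 88.1) with it, the largest rise of the list (0.84 ± 0.04, edgeR adjusted p = 1.56e-16). Vcl encodes vinculin, which links integrins to actin, and it held 919 to 1005 CPM (median 976) and 1266 to 1311 CPM (median 1296) (0.41 ± 0.02, edgeR adjusted p = 2.50e-14). Its exons overlap Ap3m1. Srf itself, a target of its own product, held 104 to 117 CPM (median 114) unstimulated and 141 to 159 CPM (median 153) stimulated (0.42 ± 0.03, edgeR adjusted p = 2.94e-11). In each of these genes no stimulated library came down to the unstimulated range.

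Most other members changed less. Pdlim5, a cytoskeletal scaffold gene, rose by 0.39 ± 0.03. Among the actins Actb rose by 0.18, Actg1 by 0.18 and Acta2, the smooth muscle actin of myofibroblasts, by 0.23, with 2108 to 2443 CPM (median 2210.1) unstimulated and 2479.8 to 2825 CPM (median 2582) stimulated. Calponin (Cnn1) and leiomodin (Lmod1), which are also smooth muscle markers, rose by 0.27 and 0.37. Of the 10 smooth muscle and pericyte markers 3 rose in all (30%, against 4.33% of all genes) and 1 fell (against 3.4%). The list holds both MRTF genes: Mrtfa fell by 0.22 (its exons overlap Sgsm3) and Mrtfb had a log2 change of 0.09 and was not called. The other fall was Mical2, an actin oxidase gene, by 0.08.

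The sequences of 4 promoters of called SRF targets are shown because they hold the CArG box, the site that SRF binds. Each window is from RefSeq (GRCm38.p6, an earlier build than the GRCm39 of the counts), runs from 250 bases before the annotated start site to 50 after it, is written 5′ to 3′ on the gene's strand, and has the CArG box in capitals. Filip1l (chr16:57548992-57549291, plus strand) has it 62 bases before the start, Vcl (chr14:20929148-20929447, plus strand) 227 bases before, Srf (chr17:46556113-46556412, minus strand) has a pair at 82 and 62 bases before, and Actg1 (chr11:120348446-120348745, minus strand) has it 90 bases before.
Filip1l: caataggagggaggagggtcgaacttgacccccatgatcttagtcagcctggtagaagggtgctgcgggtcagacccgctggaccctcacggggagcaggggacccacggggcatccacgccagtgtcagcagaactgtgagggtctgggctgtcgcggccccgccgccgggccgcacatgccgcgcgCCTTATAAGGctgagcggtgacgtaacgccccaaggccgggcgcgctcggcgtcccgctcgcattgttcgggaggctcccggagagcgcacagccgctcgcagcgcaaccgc
Vcl: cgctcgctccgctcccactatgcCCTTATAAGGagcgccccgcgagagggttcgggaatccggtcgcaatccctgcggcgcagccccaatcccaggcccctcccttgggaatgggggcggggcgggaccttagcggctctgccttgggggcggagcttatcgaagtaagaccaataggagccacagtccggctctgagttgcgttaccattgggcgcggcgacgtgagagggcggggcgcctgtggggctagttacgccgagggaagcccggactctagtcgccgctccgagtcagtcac
Srf: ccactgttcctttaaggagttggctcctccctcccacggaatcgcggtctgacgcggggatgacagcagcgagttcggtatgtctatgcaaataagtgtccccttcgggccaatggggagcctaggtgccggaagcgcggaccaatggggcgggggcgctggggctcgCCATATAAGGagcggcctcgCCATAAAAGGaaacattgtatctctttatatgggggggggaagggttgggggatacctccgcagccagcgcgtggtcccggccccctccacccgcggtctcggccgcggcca
Actg1: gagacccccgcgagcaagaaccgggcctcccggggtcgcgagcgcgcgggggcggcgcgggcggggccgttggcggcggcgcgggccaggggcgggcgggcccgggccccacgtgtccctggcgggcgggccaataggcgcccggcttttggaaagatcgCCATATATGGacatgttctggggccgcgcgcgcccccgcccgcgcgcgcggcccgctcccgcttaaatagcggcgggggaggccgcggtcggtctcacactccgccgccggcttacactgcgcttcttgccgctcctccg

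The CArG box, searched on both strands, was in 1.63% of all 32851 windows of the table and in 1.32% of the 14018 windows of tested genes (10888 of 15835 genes had a window). It was in 28 of 663 windows of called higher genes (4.22%) and in 13 of 567 windows of called lower genes (2.29%). Among genes higher by at least 1.5-fold it was in 3 of 112 windows (2.68%). Of the SRF and MRTF targets that rose, 12 of 36 windows had it (33.3%, 10 of 30 genes), and of the other members of that list 1 of 16 (6.25%). The list was compiled from known SRF targets, so a high share there is built in. The AP-1 site TGAGTCA or its complement TGACTCA was in 5.2% of all windows, in 4.02% of those of tested genes, in 9.05% of the windows of called higher genes and in 4.59% of those of called lower genes. For the full cAMP response element TGACGTCA the shares were 1.79%, 3.32% and 2.47% (2.85% over tested genes). The EGR site GCGGGGGCG was in 5.22% of windows of tested genes, 6.18% of called higher and 6.17% of called lower ones. For the TEAD site GGAATG these shares were 12.6%, 15.7% and 13.9%, and for the NFAT core TTTCCA 17.4%, 18.9% and 16.9%. Among genes higher by at least 1.5-fold they were 12.5% for AP-1, 3.57% for TGACGTCA, 1.79% for EGR, 17.9% for TEAD and 23.2% for NFAT. A match is a description of the letters and shows no binding.

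YAP and TAZ targets rose in part: 14 of 36 tested (38.9%, against 4.33% of all genes) rose and 2 fell (against 3.4%), with a median log2 change of 0.08. Amotl2, an angiomotin that feeds back on YAP, held 312 to 334 CPM (median 318) unstimulated and 442 to 491 CPM (median 468) stimulated (0.54 ± 0.03, edgeR adjusted p = 8.17e-16). Ccn1, a secreted matricellular protein gene that SRF also drives, rose, holding 793 to 873 CPM (median 824) unstimulated and 1034 to 1137 CPM (median 1058) stimulated (0.38 ± 0.03). Dlc1, whose product speeds GTP hydrolysis by RhoA and so turns it off, rose by 0.39 ± 0.03. Ankrd1 rose by 0.47 ± 0.06 and Ccn2 by 0.21 ± 0.02. All of these had separate arms, as did 2.75% of all genes upward. The 2 that fell were the kinase gene Nuak2 (-0.41 ± 0.10) and Tead3. Yap1 (0.04) was not called, and Wwtr1, which encodes TAZ, rose by 0.14.

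Immediate early transcription factors were the list with the highest share of calls. Of 40 tested, 29 rose (72.5%, against 4.33% of all genes) and 4 fell (against 3.4%), and the median log2 change was 0.38. In 25 members the stimulated arm lay wholly above the unstimulated arm and in 4 wholly below, against 2.75% and 1.98% of all genes. Myc held 139 to 153 CPM (median 143) and 209 to 238 CPM (median 226) (0.64 ± 0.03, edgeR adjusted p = 1.23e-16). Arc, a synaptic plasticity gene and a classical SRF target, held 43.1 to 46.7 CPM (median 45.0) and 71.6 to 82.7 CPM (median 74.3) (0.75 ± 0.04, edgeR adjusted p = 1.99e-15). Among AP-1 genes Fosb held 374 to 424 CPM (median 404) unstimulated and 757 to 956 CPM (median 864) stimulated (1.09 ± 0.04), and Fos held 17.8 to 31.1 CPM (median 25.8) and 32.7 to 45.9 CPM (median 39.8) (0.62 ± 0.14, edgeR adjusted p = 0.0194). Jun was not called (0.15 ± 0.08, edgeR adjusted p = 0.356). The AP-1 member Atf3 rose by 0.79 ± 0.05 and the nuclear receptor gene Nr4a3 by 0.86 ± 0.11.

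Egr1, the prototype of the zinc finger immediate early factors, held 382 to 440.1 CPM (median 410.5) and 541 to 599 CPM (median 579) (0.47 ± 0.03, edgeR adjusted p = 1.91e-11). Csrnp1, which overlaps a Rik transcript, and Ier5 rose by 0.57 ± 0.03 and 0.45 ± 0.03. Members that fell were Ier5l (-0.90 ± 0.08), Bhlhe40 (-0.54 ± 0.08), Klf10 (-0.45 ± 0.04) and Egr2 (-0.21 ± 0.04). Bhlhe40, a repressor of the clock and of differentiation genes, was highest in unstimulated replicate 3 of both viruses (234 and 223 CPM, against 181 to 198 CPM in the others) and held 123 to 154 CPM (median 138) after TRAP-6.

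MAP kinase feedback inhibitors moved both ways, with 7 rises (31.8%) and 5 falls among 22, where all genes gave 4.33% and 3.4%. Dusp1, a nuclear phosphatase of p38, JNK and ERK, held 116 to 139.9 CPM (median 124) and 201 to 226 CPM (median 214) (0.77 ± 0.04, edgeR adjusted p = 1.10e-14), with exons that overlap Ergic1. Errfi1, an EGF receptor inhibitor, rose by 0.37 ± 0.03, Dusp10 by 0.44 ± 0.03 and Dusp5 by 0.40 ± 0.03. Spry4, a Sprouty inhibitor of ERK signalling, fell by 0.70 ± 0.06, with 34.8 to 37.4 CPM (median 36.4) unstimulated and 19.4 to 26.4 CPM (median 21.4) stimulated, and Dusp7, Sh2b3, Dusp6 and Spred2 fell by 0.17 to 0.26. Rising and falling members included phosphatases of the same DUSP family.

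Of 32 calcium, calcineurin and NFAT genes, 3 rose (9.38%, against 4.33% of all genes) and 3 fell (against 3.4%), and the median log2 change was -0.0020. Besides Nfatc2 the rises were Homer1 (0.58 ± 0.04), a scaffold gene whose short form is an early gene, and Rcan1 (0.30 ± 0.06), a calcineurin inhibitor and NFAT target. The store-operated channel gene Orai2 fell by 0.23 ± 0.05, Stim2 by 0.16 and Nfatc4 by 0.19 ± 0.05. The list of CREB-driven genes of the cAMP pathway had 7 rises (25%, against 4.33% of all genes) and 2 falls among 28 (median 0.10). Besides Usp2 the rises included Irs2, an insulin receptor substrate gene (0.89 ± 0.09), Crem (0.67 ± 0.08), Sik2 (0.57 ± 0.04) and Per2 (0.45 ± 0.07). Rasd1, a Ras-like gene, had a log2 change of 1.33 ± 0.45 and was not called (edgeR adjusted p = 0.0682).

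Genes of blood clotting control and plasminogen activation rose where they changed, 9 of 20 tested (45%, against 4.33% of all genes) with none falling and a median of 0.10. Thbd, which encodes thrombomodulin, the thrombin receptor that turns thrombin toward protein C, held 657 to 852 CPM (median 732) unstimulated and 1111 to 1343 CPM (median 1247) stimulated (0.75 ± 0.07, edgeR adjusted p = 9.45e-05). The urokinase gene Plau held 25.5 to 38.8 CPM (median 27.7) and 51.3 to 74.1 CPM (median 59.9) (1.04 ± 0.13, edgeR adjusted p = 7.41e-04), and its inhibitor gene Serpinb2 rose by 1.31. Procr, the endothelial protein C receptor gene, rose by 0.38 ± 0.05, S100a10, a plasminogen receptor subunit gene, by 0.39 ± 0.04, and F3, which encodes tissue factor, by 0.37 ± 0.03. Genes that promote clotting and genes that limit it were both among the 9, and all 9 had separate arms, against 2.75% of all genes.

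In the matrix list 9 of 48 rose (18.8%, against 4.33% of all genes) and none fell, and the fibrillar collagens were among those not called: Col1a1, Col1a2 and Col3a1 had log2 changes within 0.01 of 0. The 9 rises included genes of hyaluronan and its partners. Has1, a hyaluronan synthase gene, held 13.8 to 19.1 CPM (median 16.3) and 29.6 to 40.0 CPM (median 32.6) (1.02 ± 0.08, edgeR adjusted p = 2.38e-09). Tnfaip6, which encodes the hyaluronan binding protein TSG-6, held 12.3 to 16.2 CPM (median 14.6) unstimulated and 20.9 to 26.2 CPM (median 23.9) stimulated (0.73 ± 0.07). The metalloproteinase gene Mmp19 rose by 0.56 ± 0.04 and Tnc, the repair matrix protein tenascin-C, by 0.34 ± 0.03. Exons of Mmp19 and Tnc overlap other transcripts.

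Secreted growth factors and cytokines were mixed. Of 39 growth factor genes 7 rose (17.9%) and 2 fell (median 0.06), and of 32 NF-kB, cytokine and chemokine genes 6 rose (18.8%) and 3 fell (median 0.0052), against 4.33% and 3.4% of all genes. Gdnf, the glial cell line-derived neurotrophic factor gene, held 51.8 to 60.8 CPM (median 54.9) and 87.9 to 104 CPM (median 94.6) (0.77 ± 0.05, edgeR adjusted p = 1.75e-12). Ereg, an EGF receptor ligand gene, rose by 0.59 ± 0.04, Bdnf by 0.45 ± 0.03, Edn1, for the vasoconstrictor endothelin-1, by 0.72 ± 0.14 and Inhba, for activin A, by 0.48 ± 0.08. Fgf2 fell by 0.21 ± 0.03. Ptgs2, for the prostaglandin synthase COX-2, held 1527 to 1714 CPM (median 1582) and 2326 to 2489 CPM (median 2398) (0.59 ± 0.03, edgeR adjusted p = 6.07e-17). Il33 rose by 0.69 ± 0.08 and the NF-kB inhibitor gene Tnfaip3 by 0.51 ± 0.08, while the chemokine gene Ccl2 fell by 0.58 ± 0.12 (edgeR adjusted p = 0.0177).

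BMP target genes were among the falls. In the list of 38 BMP and TGF-beta genes 3 rose and 6 fell, where the background was 4.33% and 3.4%. Smad6, an inhibitory SMAD and BMP target, held 19.97 to 25.7 CPM (median 21.5) and 10.5 to 13.1 CPM (median 12.4) (-0.84 ± 0.07, edgeR adjusted p = 9.48e-11). The BMP targets Id1 and Id3 fell by 0.78 ± 0.09 and 0.50 ± 0.04, from medians of 16.9 and 89.9 CPM to 10.2 and 62.1 CPM. Id2, Id4 and Smad7 were not called (-0.18, -0.02 and -0.07). The TGF-beta ligand genes split, Tgfb2 rising by 0.61 ± 0.06 and Tgfb1 falling by 0.19. Of 47 Wnt and planar polarity genes 4 rose (8.51%) and 8 fell, 25.5% in all against 7.73% of all genes. Fzd1, Fzd4 and Fzd7, all Wnt receptor genes, fell by 0.34, 0.20 and 0.23, whereas Fzd5 rose by 0.50 ± 0.05, and the ligand gene Wnt4 fell by 0.52 ± 0.09. In the Notch list Hes1 was the single fall among 18 and Jag1, a ligand gene, the single rise (0.14 ± 0.04, edgeR adjusted p = 0.0284), a call lost on leaving out any of 7 single libraries. Hey1 (-0.33) and Hey2 (0.23) were not called.

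Heat shock genes rose where they changed, and other stress lists were mixed. Of 16 heat shock chaperone genes 7 rose (43.8%, against 4.33% of all genes) and none fell, led by Hspa1a (0.88 ± 0.08) and Hspa1b (0.48 ± 0.05), which are near-identical copies whose reads can be split between them, and by the co-chaperone genes Dnajb4 (0.39 ± 0.03) and Dnajb1 (0.35 ± 0.03). Unfolded protein and amino acid stress genes moved both ways (3 rose, 5 fell, of 30, 26.7% against 7.73% of all genes): Ddit3, Ddit4 and Trib3 fell by 0.40, 0.41 and 0.39 and Ppp1r15b rose by 0.30. Early RNA-decay regulators split similarly, Zfp36 rising by 0.45 ± 0.06 while Zfp36l1 and Zfp36l2 fell by 0.17 and 0.20. The clock genes Bhlhe41 and Per2 changed by -0.50 and 0.45, with 2 rises and 3 falls among 20 (25% against 7.73% of all genes).

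Glycolysis genes and p53 targets moved both ways, with 22.2% and 24.1% of members called against 7.73% of all genes tested. Hk2 and Pfkfb3, which push glucose into glycolysis, fell by 0.26 and 0.18, and the transporter gene Slc2a3 rose by 0.40 (2 rose and 4 fell of 27). Of 27 cholesterol synthesis genes 2 rose (7.41%, against 4.33% of all genes) and none fell. Among them Pmvk rose by 0.41, a call lost on leaving out any of 5 single libraries. Among p53 targets 3 rose and 4 fell of 29, Bbc3 and Gadd45a falling by 0.53 and 0.40. None of 41 cell cycle genes was called by edgeR, and 4 passed an unadjusted p of 0.05. Over all genes tested 2974 of 15835 passed it, 1443 of them downward. None of 33 interferon response genes was called either. The median log2 change of the interferon genes was -0.34, and 5 passed an unadjusted p of 0.05, all downward. Their summed level ran from 739.9 to 1331 CPM in unstimulated and from 750.5 to 1029 CPM in stimulated libraries, and Ifit1 alone from 6.68 to 94.7 CPM among the 6 unstimulated libraries.

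**Figure D3:**
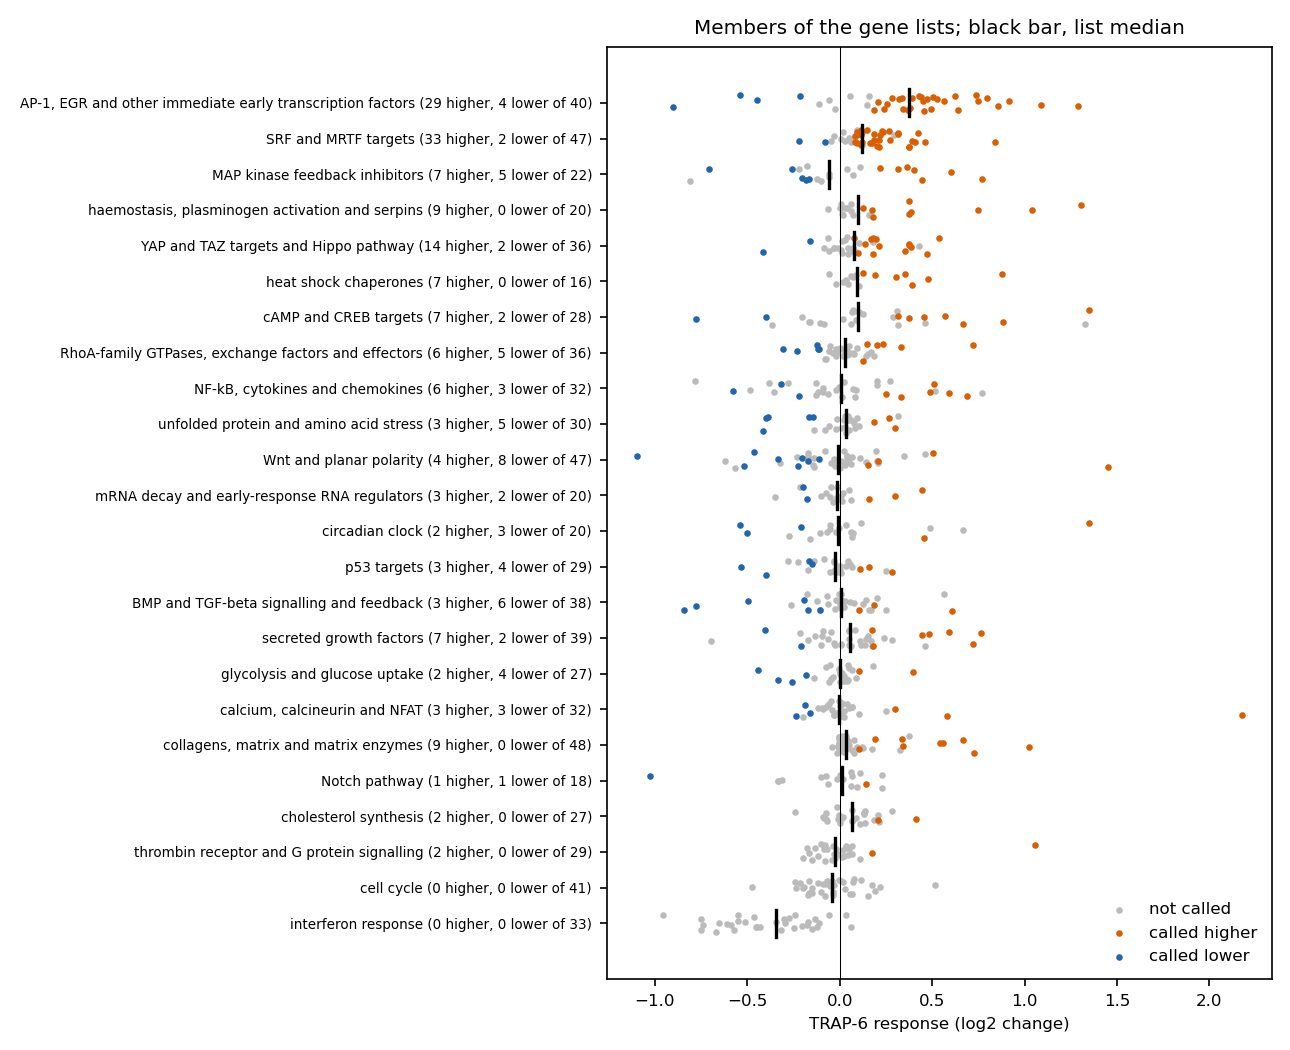
TRAP-6 response (log2 change) of each tested member of 24 gene lists, ordered by the share of members called, with the list median as a black bar; counts of members called higher and lower and the number tested stand beside each name. The immediate early list (29 higher, 4 lower of 40) and the SRF and MRTF list (33 higher, 2 lower of 47) have the highest shares, and the interferon list sits left of 0 with no member called.

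The response was read separately with each virus, since the sensor was off with one and on with the other. With empty virus 360 genes rose (2.27%) and 257 fell (1.62%), 617 in all (3.9%). With Cre virus 558 rose (3.52%) and 293 fell (1.85%), 851 in all (5.37%). Of the genes called over both viruses, 271 rises and 105 falls were called with each virus alone. The difference between the responses was tested directly and passed for 13 genes (0.0821%), 12 more positive (0.0758%) and 1 more negative (0.00632%) with Cre, and DESeq2 called 57. The count was 3 to 5 on leaving out any of the 4 replicate 1 libraries, any replicate 2 library other than unstimulated empty, or the empty replicate 3 library of either arm. It was 22 without stimulated Cre replicate 3, and 138 with replicate number as a further term.

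Besides the genes described here the 13 held Nrp1, Slc30a1, Lmcd1, Hivep2, Sox9, Gfod1, Socs3, Cxcl12 and Fzd1, with differences of 0.22 to 0.53. Thbd, described above, rose by 0.56 ± 0.05 with empty virus and 0.93 ± 0.05 with Cre (difference 0.37 ± 0.07, edgeR adjusted p = 0.03). Its stimulated libraries held 1111, 1165 and 1181 CPM with empty virus and 1334, 1343 and 1313 CPM with Cre. These levels come from the libraries that gave the difference and are no separate support for it. Lrrk2, a kinase gene, rose by 0.31 ± 0.05 and 0.77 ± 0.05 (difference 0.45 ± 0.07, edgeR adjusted p = 0.00695), and Inhba by 0.27 ± 0.05 and 0.69 ± 0.05. Ppp1r15a, a stress-induced phosphatase subunit gene that overlaps Tulp2, went the other way, with 0.56 ± 0.06 and 0.09 ± 0.06 (difference -0.48 ± 0.08, edgeR adjusted p = 0.0103). Serpinb2 changed by 0.99 ± 0.09 and 1.62 ± 0.09, and the difference missed the threshold (edgeR adjusted p = 0.0523). For Srf the difference was -0.06 ± 0.07 (edgeR adjusted p = 0.902) and for Hes1 0.02 ± 0.14 (edgeR adjusted p = 0.986). Cells with Cre and no sensor were not analysed here, so Cre and sensor cannot be told apart.

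TRAP-6 was also given to fibroblasts heterozygous for Gaq*-BERKY3 or Gai*-BERKY3, in 12 libraries each with the same viruses, dose and time, and the 36 libraries were fitted together. Line, mice and culture cannot be told apart. No gene of 16749 differed in response between Ga13 and Gaq (0%) by edgeR, and DESeq2 also called 0. An unadjusted p of 0.05 was passed by 851 of the 16749, close to the share of 0.05 that such a threshold passes where nothing differs. With replicate number within each line as a further term edgeR called 7. The median SE of that difference was 0.130. Nfatc2 changed by 2.17 ± 0.34 in Ga13 and 2.15 ± 0.35 in Gaq, Usp2 by 1.34 ± 0.10 and 1.33 ± 0.10, and Has1 by 1.02 ± 0.09 and 1.01 ± 0.09. Estimates were further from 0 in Ga13 for Hes1 (-1.03 ± 0.13 and -0.73 ± 0.13, difference -0.30 ± 0.19, edgeR adjusted p = 0.955) and Srf (0.42 ± 0.07 and 0.25 ± 0.07, difference 0.17 ± 0.10, edgeR adjusted p = 0.955). They were further from 0 in Gaq for Tnfaip6 (0.72 ± 0.08 and 0.93 ± 0.09, difference -0.21 ± 0.12) and Kprp (1.75 ± 0.18 and 1.97 ± 0.19, difference -0.23 ± 0.27). None of these differences reached the threshold.

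Against Gai fibroblasts the response differed for 53 genes (0.316%), 48 more positive (0.287%) and 5 more negative (0.0299%) in Ga13. In 51 of the 53 the Ga13 change was the larger in size. In 45 the lines moved in the same direction, and in 52 the Gaq change had the sign of the Ga13 change. The 53 were chosen on the same Ga13 and Gai libraries, so their selection shaped these counts. In the same fit the response itself passed for 966 genes in Ga13 (5.77%), 672 in Gaq (4.01%) and 398 in Gai (2.38%). Median total counts per library were 21.7 M in Ga13, 18.2 M in Gaq and 18.4 M in Gai, and an effect of depth on these counts was not tested. Sgk1, a kinase gene induced by many stimuli, rose by 0.54 ± 0.03 in Ga13 and 0.17 ± 0.03 in Gai (difference 0.36 ± 0.05, edgeR adjusted p = 2.54e-05). Hivep1, a zinc finger factor gene, changed by 0.38 ± 0.04 in Ga13 and -0.05 ± 0.04 in Gai (edgeR adjusted p = 9.55e-05 for the difference), Ccdc71l by 0.79 ± 0.06 and 0.25 ± 0.05, and Fam107b, an actin-associated gene, by 1.00 ± 0.03 and 0.69 ± 0.03. The growth factor gene Gdnf changed by 0.76 ± 0.05 and 0.32 ± 0.05, and Errfi1 by 0.36 ± 0.03 and 0.06 ± 0.03. Serpinb2 (1.30 ± 0.10 and 0.38 ± 0.10), Filip1l (0.84 ± 0.08 and 0.31 ± 0.08) and Vcl (0.41 ± 0.04 and 0.16 ± 0.04) were among the 53 as well.

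Of the genes that fell, Prickle1 changed by -1.10 ± 0.13 in Ga13 and -1.05 ± 0.14 in Gai, and Smad6 by -0.85 ± 0.09 and -0.92 ± 0.09 (edgeR adjusted p = 0.981 and 0.954 for the differences). For Hes1 the values were -1.03 ± 0.13 and -0.28 ± 0.13, and the difference of -0.74 ± 0.18 missed the threshold (edgeR adjusted p = 0.0914). The count of 53 was 33 without unstimulated Gai replicate 2 with empty virus or replicate 3 with Cre, and 104 without stimulated Gai Cre replicate 1. With replicate number within each line as a further term it was 288.

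**Figure D4:**
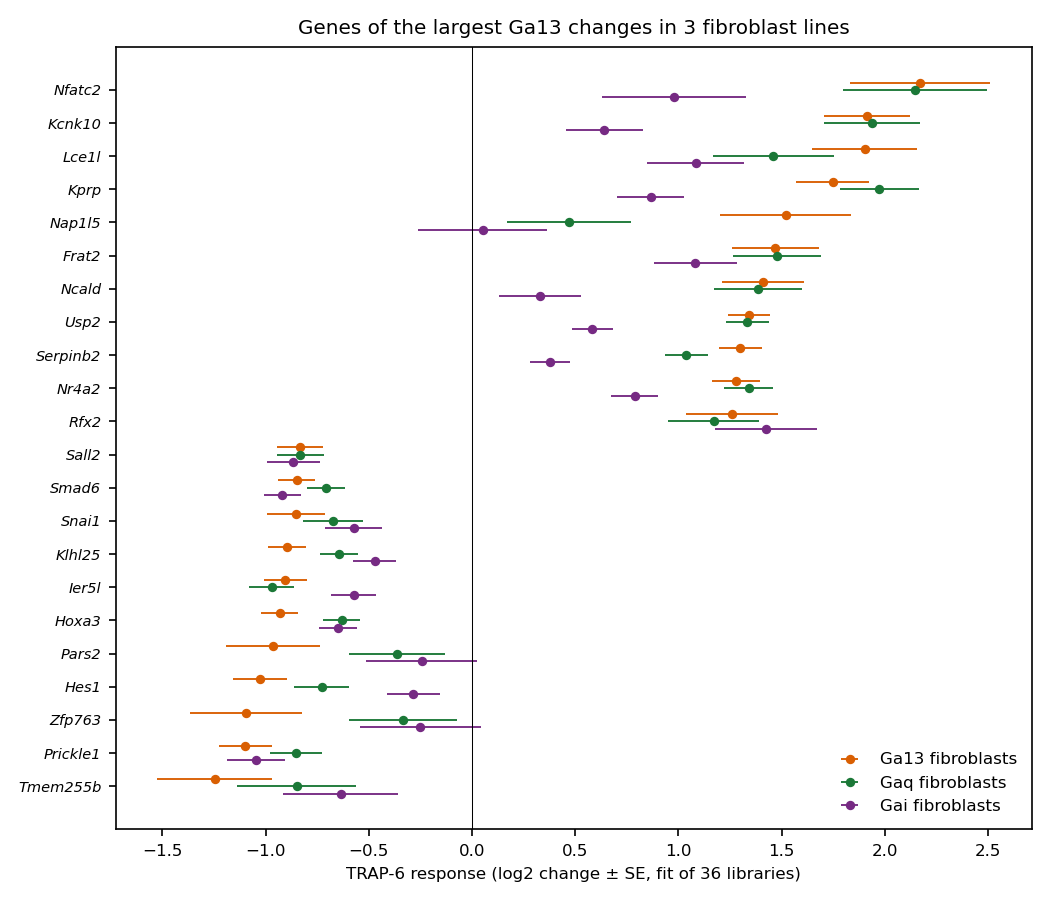
TRAP-6 response (log2 change, points, with SE as bars) of 11 of the 12 highest and 11 of the 12 lowest named genes of the Ga13 response in Ga13, Gaq and Gai fibroblasts, from 1 fit of 36 libraries. Genes were selected on the Ga13 libraries, Gai points lie nearer 0 than Ga13 points for Kcnk10, Usp2 and Serpinb2, whose line difference passed the test, and Prickle1, Smad6 and Sall2 lie at like values in Ga13 and Gai.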

How the data were processed

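RNA was taken by poly-T selection and made into random hexamer libraries, per the labels. The authors deposited raw counts per gene for each library, made with fastp, Subread and featureCounts on GRCm39, per the submitters' processing notes; versions, annotation, strand setting and multimapper handling are not given in the sources used here. Where strand is unknown, reads of overlapping genes cannot be told apart. In an annotation of an earlier build (GENCODE, used only for this) exons of another gene overlapped 32 of 111 genes named by rule and 20 of 69 named besides, among them Arhgef11 (Lrrc71), Rhoa (Tcta), Rhoq (Pigf), Sh2b3 (Atxn2), Sik2 (Ppp2r1b), Fgf2 (Nudt6), Ddit3 (Mars), Jun (Junos) and Gna12 (Amz1).

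From these counts, edgeR 4.0.16 in R 4.3.3 gave TMM factors, the default low-count filter and robust quasi-likelihood F tests (virus and treatment as terms, Benjamini-Hochberg threshold 0.05). Contrasts of 4 group means gave the response with each virus and their difference, and 1 fit of 36 libraries gave the line differences. Fold changes are log2 with their standard error. The text names the 12 highest and 12 lowest called genes with a mean of at least 1 CPM, for each of 24 lists at most 4 called genes ranked by p, 18 set genes and the 6 genes with the smallest p in a called line comparison, leaving out clone names. The 69 others were chosen after their values were seen. Members and lists, markers included (8 lists), were chosen with earlier results of these data known. Scripts were tested on simulated data. Libraries of 17.4 M counts or more limit precision mainly for genes near 1 CPM. Alternatives were DESeq2 1.42.0, other scalings and filters, a test against a log2 change of 0.2, a replicate block and leaving out each library. Same-number stimulated and unstimulated libraries deviated together with empty virus (correlations of 0.180 to 0.312) and less so with Cre virus (0.031 to 0.131); the numbers are the only label behind such a pairing. Promoter windows are from RefSeq (GRCm38.p6), matched by symbol for 10888 genes. The astrocyte libraries were not used here, and some genes are not reported here.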

Additional observations from a re-analysis of the deposited data

Results flagged for a closer look

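The TRAP-6 response of Ga13 fibroblasts differed between the viruses for 13 genes in edgeR's test of the difference itself. It differed from that of Gai fibroblasts for 53 genes, by the same kind of test in the joint fit of 36 libraries. The 6 with the smallest p, each more positive in Ga13, were Errfi1 (0.30 on the log2 scale), Gdnf (0.44), Sgk1 (0.36), Hivep1 (0.43), Ccdc71l (0.54) and Fam107b (0.31). Groups of 3 libraries were not searched for outlying samples.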

How the results depend on the processing

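No gene called in the Ga13 response was called in the opposite direction under any alternative, and 86 of 109 tested named genes stayed on their side of the threshold in all of 20 fits each. A test against a log2 change of 0.2 left 298 of the 1224 called genes (216 higher, 82 lower). Of these, 7 are among the 47 tested genes of the SRF and MRTF list and 6 among the 36 of the YAP list. Jag1, Plcb4, Pmvk and Zfp763 lost their calls in 8, 9, 6 and 5 fits. Leaving out each library in turn gave 984 to 1217 called genes (572 to 713 higher, 412 to 514 lower), 457 to 650 with empty virus, 592 to 881 with Cre, 3 to 22 for the virus difference, 0 to 0 for Ga13 minus Gaq and 33 to 104 for Ga13 minus Gai. Separated arms numbered 460 to 544 above and 357 to 394 below, where fewer libraries make separation easier. Without scaling of library totals, an alternative chosen after seeing the data, 565 genes lay below. DESeq2 called 57 genes for the virus difference and 96 for Ga13 minus Gai. Over all groups replicate numbers did not pair the Ga13 libraries by the rule used (every pair over 0.1), which the 3 pairs with empty virus alone met. The correlation of deviations over 9525 genes ran from -0.001 to 0.312 in 18 same-number pairs (median 0.173), 12 of them over 0.1. Even so, 11 of 12 libraries had their highest mean correlation with libraries of their own number. Such a shared deviation by number stays in the spread behind the p-values and errors given. With the replicate block 1554 genes were called in Ga13, 916 with empty virus, 1357 with Cre virus, 138 for the virus difference, 7 for Ga13 minus Gaq and 288 for Ga13 minus Gai; interferon genes called went from 0 to 2. The cause of these moves was not tested. At these depths genes near 1 CPM have the widest errors.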
